A study of Homo sapiens with 15 samples.

Results

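RAS-induced senescence in human fibroblasts was read from 6 of the 15 libraries of the series, chosen by the column names of the count table: 3 from cells marked RAS and 3 from cells marked ctr, all of them also marked siCTR. Both groups are IMR90, a normal diploid strain of human fetal lung fibroblasts. The control group carried the empty vector retrovirus and the RAS group a retrovirus that expresses RAS; the gene and mutation of RAS are not given in the labels. Both groups received a non-targeting siRNA (siControl) on day 4 after the retrovirus and again the next day, and were harvested 48 hours after that. The labels call the RAS group senescent and describe its genotype as a control knockout, whereas the protocols describe siRNA and no knockout. Whether either group also carried an empty lentivirus is not stated. The other 9 libraries come from RAS cells with an siRNA against METTL14 and an empty, wild-type or mutant METTL14 lentivirus; they entered the fit, where they add to the estimate of the spread, and are not described. The comparison asks how the transcriptome of senescent fibroblasts differs from that of dividing ones, here beyond cytokines, mitosis and interferon genes: in transcription factors, receptors, transporters and enzymes.

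Sustained RAS signalling pushes normal fibroblasts out of the cell cycle into a lasting arrest called oncogene-induced senescence, held in place by the p53 and p21 and by the p16 and RB pathways. RB keeps the E2F transcription factors from switching on genes for DNA synthesis. Senescent fibroblasts stay alive and metabolically active, enlarge, remodel their matrix and secrete inflammatory factors, many of them under NF-kB control.

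Messenger RNA was counted by its 3′ ends (QuantSeq). Library totals were 5677742 to 6124671 counts in control and 5611724 to 7763084 in RAS cells, so 1 count stood for 0.129 to 0.178 CPM (counts scaled to a library of 1000000). Control libraries had 15429 to 15875 genes with a count and RAS libraries 16110 to 16144. A set of 20 genes was picked as the most abundant by mean share over the 6 libraries. It took 7.89% ± 0.0771 (SD, n = 3) of the counts in control and 11.7% ± 0.0289 (SD, n = 3) in RAS cells. Genes abundant only in RAS cells can enter that set and raise its share there. The 100 most abundant genes of each library itself took 21.6% ± 0.145 (SD, n = 3) in control and 25.5% ± 0.0777 (SD, n = 3) in RAS cells. The groups did not overlap in either share. The exact two-sided permutation p was 0.1 for each, the smallest that 3 against 3 libraries allow. MKI67, a marker of dividing cells, had 285, 303 and 264 CPM in control and 9.54, 14.1 and 7.31 CPM in RAS cells, lower in all 3 RAS libraries. METTL14, the target of the siRNA that neither group received, had 19.1, 21.2 and 23.3 CPM in control and 26.2, 19.3 and 20.5 CPM in RAS cells and overlapped between the groups. Its partner METTL3 had 16.9, 15.6 and 15 CPM in control and 8.31, 19.5 and 9.27 CPM in RAS cells; it was not called (adjusted p = 0.298) but fell by 0.85 on the log2 scale without RAS replicate 2. Nothing in the labels ties the 3 libraries of each group to separate cultures, so the p-values below measure a spread that can be technical.

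Markers of the labelled cell type were present. All 13 fibroblast markers were tested, of which 9 rose and 3 fell. Their summed level was 11781 to 11915 CPM in control and 23688 to 24762 CPM in RAS cells. This sum follows its most abundant genes. The collagen genes COL1A1 and COL1A2 went from mean levels of 2698 and 1256 CPM in control to 11896 and 5234 CPM in RAS cells. VIM went the other way, from 5428 to 2646 CPM. The higher sum is therefore not a rise shared by all markers. Of the markers of other cells, smooth muscle and pericyte genes summed to 1698 to 1852 CPM in control and 2160 to 2314 CPM in RAS cells (6 of 11 tested members rose, 2 fell). Epithelial genes summed to 138 to 151 and 52.6 to 70.8 CPM, with 6 of 14 at 0 in all 6 libraries, CDH1, KRT5 and KRT14 among them. Endothelial genes summed to 18.6 to 25.8 and 37.3 to 40.3 CPM, with CDH5, ERG, VWF and EMCN at 0. Of 12 leukocyte genes 9 were at 0, PTPRC included, and of 11 neural and melanocyte genes 8 were at 0, while TUBB3 and PMEL fell. In these bulk libraries fewer cells of a type and less RNA per cell cannot be told apart.

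A large share of the measured genes differed between the groups. Of 13516 genes tested with edgeR's quasi-likelihood test, 6201 (45.9%) had a p under 0.05 after Benjamini-Hochberg adjustment and are called here: 3241 (24%) higher and 2960 (21.9%) lower in RAS cells. At least 2-fold changes were called for 1656 (12.3%) higher and 1157 (8.56%) lower genes, and at least 8-fold changes for 405 and 206. The libraries of the groups did not overlap in 7319 of the 13516 tested genes (54.15%) and in 5947 of the 6201 called genes. A lack of overlap, given below for named genes, is therefore usual for a called gene and does not set it apart. The fitted log2 change, RAS minus control, had a median of -0.0037 over all tested genes, with 80% of them between -1.08 and 1.45. The balance of the calls depends on scaling: of the called genes 52.3% were higher and 47.7% lower, against 40.6% and 59.4% when libraries were scaled by their totals alone, a step that moves the median of all genes to -0.15. Protein-coding genes had a median of -0.02 (2929 higher and 2804 lower of 11812), long non-coding RNAs 0.22 (145 and 81 of 806) and pseudogenes 0.26 (71 and 23 of 448). Every list below is therefore given with its count and median. They are to be read against the 24% called higher and 21.9% called lower over all tested genes. The lists were chosen with earlier results of the same libraries known, so no list is tested for standing apart.

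**Figure D1:**
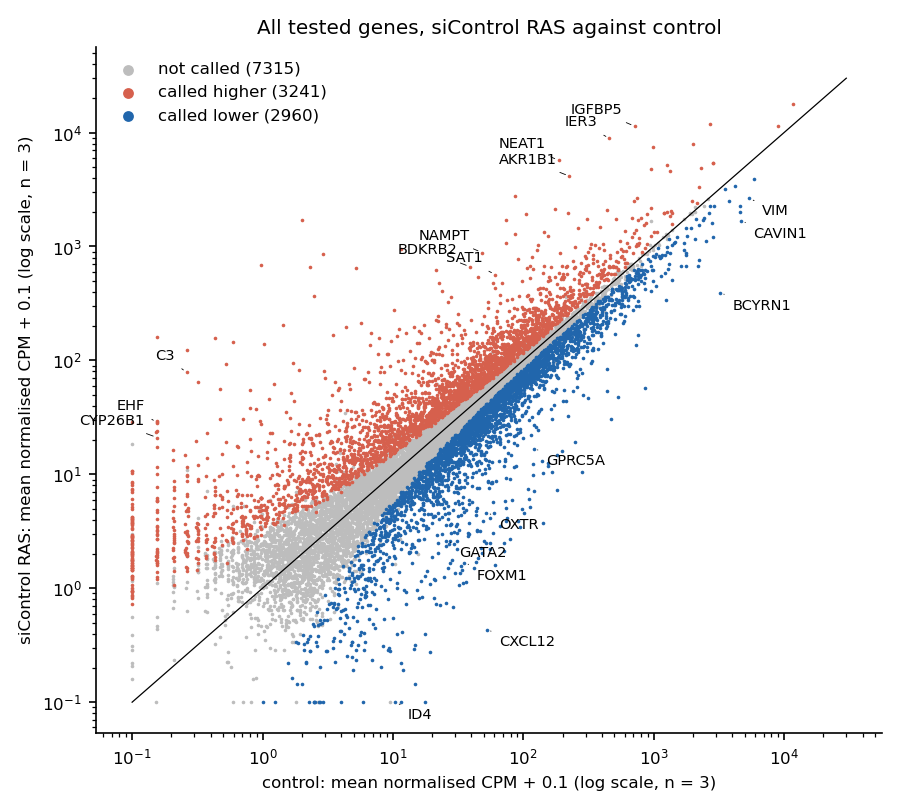
Mean normalised CPM plus 0.1 of each tested gene in control (x axis) and RAS cells (y axis), both on log scales, 3 libraries per group. Points are coloured by the call (3241 higher, 2960 lower, 7315 not called) and the line marks equal levels; genes far from it include IGFBP5 and NEAT1 above and CXCL12 and BCYRN1 below.

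The 10 largest rises in mean CPM included IGFBP5, COL1A1 and IER3, and the 10 largest falls included CAVIN1, BCYRN1 and ACTG1. Values of the 3 libraries are given in the order of their replicate numbers throughout. IGFBP5, a binding protein of insulin-like growth factors, went from 765, 669.5 and 716 to 11363, 11298 and 11372 CPM, 15.8-fold higher. COL1A1, the main chain of type I collagen, had 2820, 2748 and 2526 CPM in control and 12392, 11914 and 11382 CPM in RAS cells, and its partner chain COL1A2 rose 4.17-fold. IER3, an immediate early response gene, rose 19.4-fold, from 468, 471 and 436 to 8988, 8754 and 8868 CPM. In IGFBP5, COL1A1 and IER3 the lowest RAS library was more than 4 times the highest control library, and the replicates of a group lay close together.

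Other steep rises were in a nuclear RNA and a reductase. NEAT1, the long non-coding RNA that builds paraspeckles, had 212, 191 and 156 CPM in control and 5682, 5825 and 5585 CPM in RAS cells, 30.6-fold higher, whereas MALAT1, its neighbour on the chromosome and also a nuclear RNA, rose 1.51-fold. AKR1B1, an aldose reductase that turns glucose into sorbitol, had 227, 218 and 232 CPM in control and 4159, 4292 and 3969 CPM in RAS cells, 18.3-fold higher. STC1, a secreted glycoprotein hormone, rose 5.03-fold, and B2M, the light chain of class I MHC, 7.53-fold.

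Cytoskeletal genes were among those with the largest falls in CPM. CAVIN1, a coat protein of caveolae, had 5088, 4434 and 4506 CPM in control and 1672, 1603 and 1732 CPM in RAS cells, 2.8-fold lower. The intermediate filament VIM fell 2.05-fold, the tubulins TUBB and TUBA1B 2.27-fold and 3.26-fold, and the actins ACTG1 and ACTB 2.03-fold and 1.49-fold. Actin and tubulin genes have near-identical copies, so the split of reads among them is uncertain. BCYRN1, a short non-coding RNA that resembles Alu repeats and can share reads with them, fell 8.23-fold, from 3693, 3081 and 2877 to 417, 380.5 and 374 CPM. SFRP1, a secreted inhibitor of Wnt signalling, fell 2.92-fold, from 2225, 2187 and 2209 to 773, 734 and 759 CPM. None of these genes overlapped between the groups.

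Several genes were silent or nearly silent in one group. ABCG1, a cholesterol exporter, had 0 counts in control and 10.5, 5.25 and 14.8 CPM in RAS cells, at least 63.3-fold higher if control is put at 3 counts, about the 95% upper limit of a count of 0. PDPN (podoplanin, a membrane mucin that binds CLEC-2) had 1 control count and 27.7, 28.3 and 31.5 CPM under RAS, which is a ratio of 537 (95% exact counting interval 95.9 to 21234). TNFSF15, a ligand of the TNF family, had 0, 0.988 and 0 CPM in control and 151, 157 and 166 CPM in RAS cells. In all 3 RAS libraries these genes were above every control library. SNORD3B-1, a small nucleolar RNA that also passed the rule for named genes, rested on 1 library: it had 0 counts in control and 1.91, 27.7 and 1.96 CPM in RAS cells, and its adjusted p of 0.039 (edgeR) became 0.0663 without RAS replicate 2; it also lost its call when any single control library was left out.

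In the other direction, ID4, an inhibitor of basic helix-loop-helix factors, had 14.1, 9.06 and 7.98 CPM in control and 0 counts in RAS cells, at least 63.7-fold lower. CXCL12, the stromal chemokine that binds CXCR4, went from 51.7, 56.8 and 48.2 to 0.817, 0 and 0.178 CPM; its log2 change of -7.04 became -8.86 without RAS replicate 1, the library that held most of the remaining counts. SH2D5, an adaptor protein, had 17.2, 20.1 and 20.1 CPM in control and 3 counts under RAS, a ratio of control to RAS of 116 (95% exact counting interval 39.5 to 567); all 3 were in RAS replicate 3 and the other RAS libraries had 0, so the ratio rests on that library. LZTS1, a leucine zipper protein, had 32, 30.5 and 23.8 CPM in control and 0.681, 0.375 and 0.713 CPM in RAS cells, 46.4-fold lower. These are losses down to the level of single counts, and the groups lay far apart.

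Across the lists other than cell type markers, the share of members called was highest for lipoprotein and scavenger receptors (83.3%) and complement and coagulation genes (81.8%), and lowest for zinc finger genes named ZNF (18.3%), against 45.9% of all tested genes. Of 389 tested ZNF genes 40 rose and 31 fell, with a median of -0.0096; the counts were 35 and 35 with upper-quartile scaling and 31 and 50 with libraries scaled by totals alone. ZNF667 had 8.13, 5.6 and 8.32 CPM in control and 32.7, 33.2 and 39.2 CPM in RAS cells and ZNF724 8.28, 11.5 and 5.16 CPM in control and 1.09, 0.937 and 1.96 CPM in RAS cells, both without overlap, but 318 members were not called; the sign of the median turned without control replicate 1 or RAS replicate 3.

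**Figure D2:**
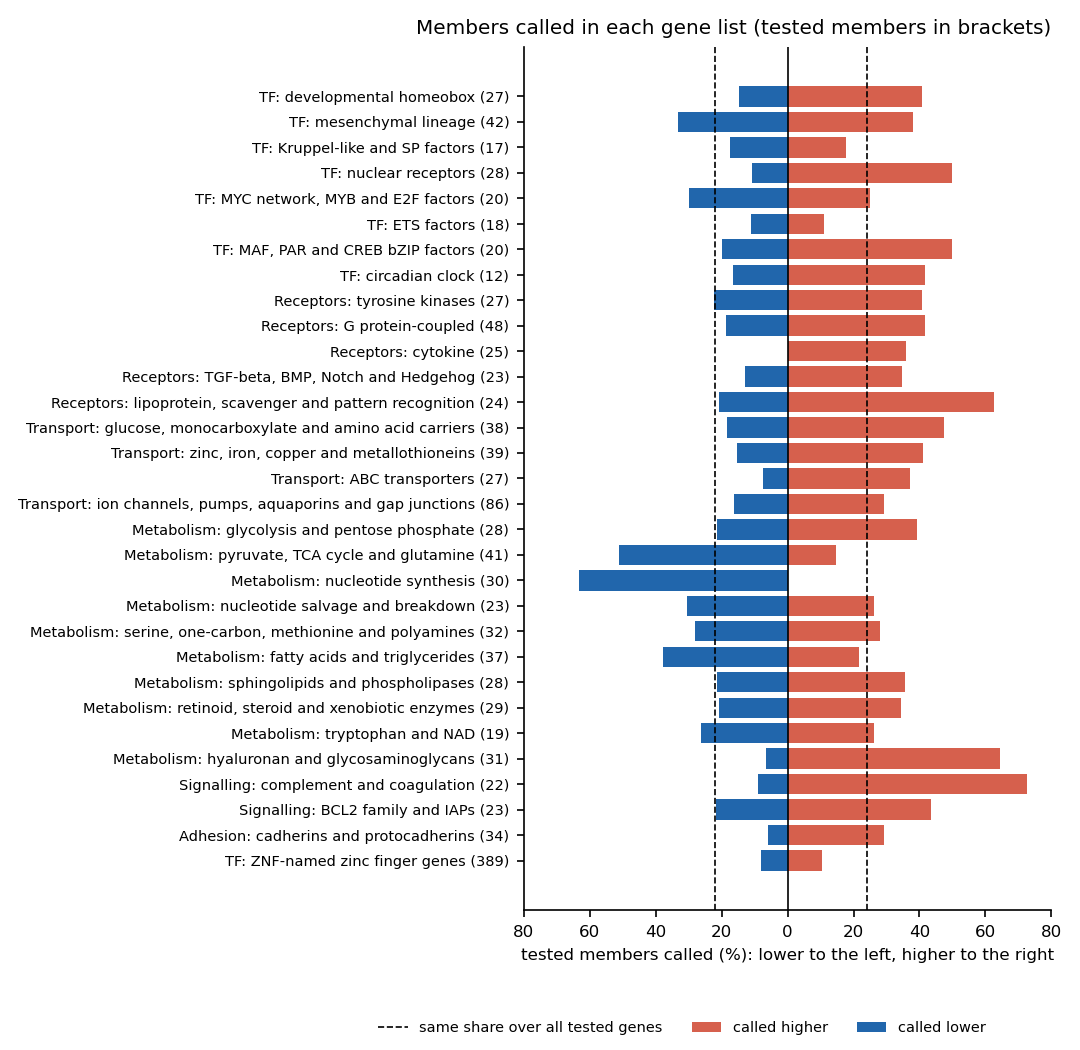
Percent of the tested members of each list called lower (bars to the left) and higher (bars to the right) in RAS cells, with the number tested in brackets. Dashed lines mark the same shares over all tested genes, 21.9% and 24%; nucleotide synthesis has no bar to the right and cytokine receptors none to the left.

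Some transcription factors that drive the cell cycle fell, with FOXM1 and MYBL2 among the 206 genes called at least 8-fold lower. Of 20 tested genes of the MYC network and the MYB and E2F families (26 in the list), 5 rose and 6 fell with a median of -0.08, a sign that turned without control replicate 1, RAS replicate 1 or RAS replicate 3. These are 25% and 30% of the tested members, against 24% and 21.9% of all tested genes. FOXM1, which drives genes of mitosis, had 40.9, 32.8 and 31.6 CPM in control and 0.272, 3.18 and 1.25 CPM in RAS cells, a log2 change of -4.55 ± 0.44 (SE, adjusted p = 3.35e-10); without RAS replicate 2, the RAS library with the highest value, the change was -5.59. MYBL2, a MYB factor of the DREAM and MuvB complexes, had 55.6, 49.1 and 44.4 CPM in control and 2.32, 3.37 and 1.78 CPM in RAS cells, 19.97-fold lower. E2F1, the activator held by RB, had 30.5, 22.2 and 29.3 CPM in control and 4.63, 1.87 and 3.92 CPM in RAS cells, 7.69-fold lower, whereas the repressor E2F7 had 62.4, 62.4 and 48.7 CPM in control and 60.5, 75.1 and 59.7 CPM in RAS cells and was not called (adjusted p = 0.387). MXI1, which competes with MYC for MAX, rose 4.17-fold, from 36.1, 39.4 and 26.3 to 150.2, 137 and 138 CPM. MYC itself was low in both groups, with 4.22, 6.42 and 3.83 CPM in control and 2.72, 1.87 and 3.56 CPM in RAS cells, and was not called (adjusted p = 0.232). FOXM1, MYBL2 and E2F1 lay below every control library in all 3 RAS libraries.

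Nuclear receptors, which turn hormones and lipids into transcription, rose more often than they fell. Of 28 tested (35 in the list) 14 rose and 3 fell; the median log2 change was 0.51. NR4A2 and NR4A1, orphan receptors induced by growth factor signals, had 30.005, 36.2 and 20.3 CPM in control and 191, 149 and 156 CPM in RAS cells, and 2.97, 5.11 and 4.66 CPM in control and 26.6, 23.8 and 21.2 CPM in RAS cells, respectively. RORA, a retinoid-related orphan receptor, rose 4.46-fold, from 30.005, 29.98 and 32.3 to 141, 131 and 139 CPM. THRB, a thyroid hormone receptor, had 3 control counts and 8.72, 8.99 and 8.38 CPM under RAS, which is a ratio of 53.6 (95% exact counting interval 18 to 262). RARB, a retinoic acid receptor and itself a target of retinoic acid, had 0 control counts and 2.997, 3.37 and 0.713 CPM in RAS cells, at least 14.8-fold higher. The paired COUP-TF receptors went opposite ways. NR2F1 had 204, 217 and 185 CPM in control and 528, 518 and 518 CPM in RAS cells, and NR2F2 had 631, 604 and 587 CPM in control and 244, 249 and 242 CPM in RAS cells. PPARG, the regulator of fat cell genes, fell 2.32-fold, from 20.9, 24.5 and 17 to 8.85, 8.62 and 9.45 CPM. None of these receptors overlapped between the groups, which also held for 5947 of all 6201 called genes.

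Among bZIP factors 10 of 20 tested members rose and 4 fell, with a median of 0.62. CREB5 had 1.09, 4.94 and 2.83 CPM in control and 29.2, 24.7 and 38 CPM in RAS cells; its log2 change of 3.37 became 3.96 without control replicate 2. BACH1, a heme-sensing repressor, rose 2.44-fold, and ATF5, a factor of the mitochondrial stress response, fell 2.9-fold, from 77.2, 71.8 and 83 to 25.1, 26.8 and 28.2 CPM. No control library reached a RAS library in CREB5 or BACH1.

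Krüppel-like and SP factors went both ways, with 3 higher and 3 lower of 17 tested (35.3% called, against 45.9% of all tested genes) and a median of 0.28. KLF9, a target of glucocorticoid and thyroid hormone receptors, had 8.44, 6.75 and 8.82 CPM in control and 82.4, 103 and 78.8 CPM in RAS cells, a log2 change of 3.45 ± 0.16 (SE, adjusted p = 2.00e-19). KLF2, a quiescence factor, had 16.4, 23.7 and 26.3 CPM in control and 5.58, 3.75 and 7.49 CPM in RAS cells, and KLF6, an early response factor, fell 2.19-fold, from 451, 429 and 426 to 210.2, 195 and 190.0 CPM. KLF4 had 43 counts over the control and 8 over the RAS libraries, too few to be tested. Of 18 tested ETS factors 2 rose and 2 fell, against 8 called with libraries scaled by totals alone and 7 in a fit of the 6 libraries only; their median of -0.0083 had no stable sign and ran from -0.16 to 0.07 over the alternatives. Within this list, which does not hold ELF3, only EHF, an epithelial ETS factor, was called at 2-fold or more. EHF had 1 control count and 31.1, 26.6 and 27.6 CPM under RAS, which is a ratio of 531 (95% exact counting interval 94.8 to 20994). Like ELF3, an epithelial ETS factor of the marker list that had 2 control counts and 4.22, 3.75 and 7.66 CPM in RAS cells, it was higher in every RAS library. The epithelial keratins KRT18 and KRT19 fell, from 55, 59.6 and 57.1 to 23.7, 20.6 and 19.96 CPM and from 58.6, 43.5 and 51.1 to 13.2, 11.2 and 6.06 CPM. The part of epithelial markers in the rise of EHF was not tested.

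**Figure D3:**
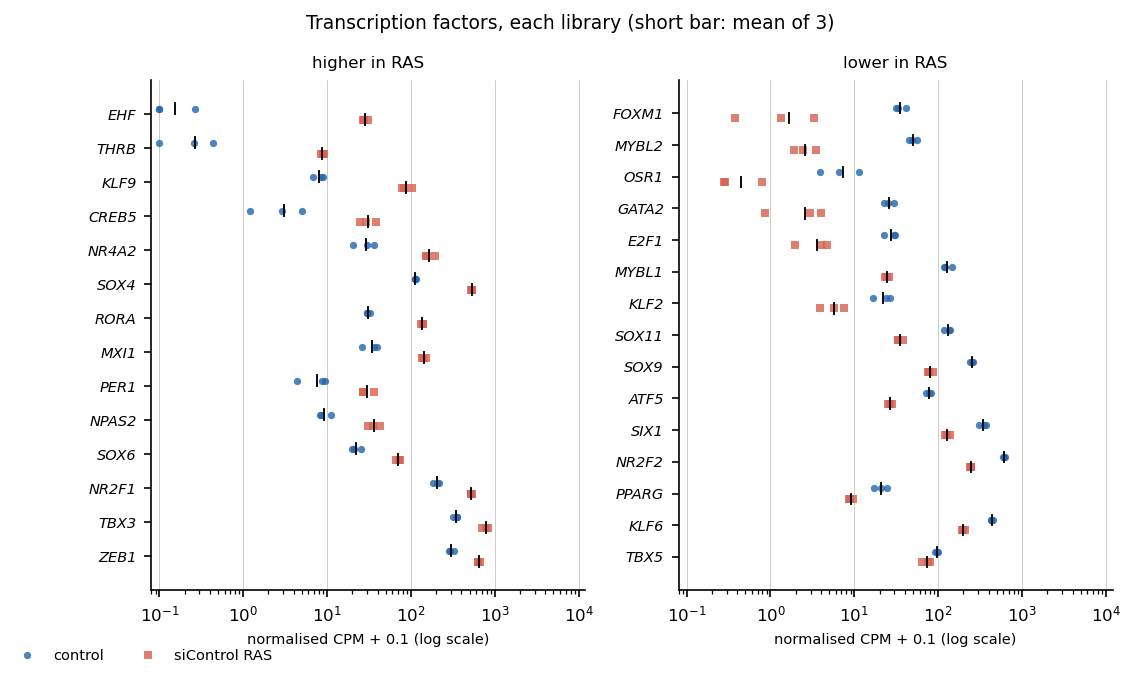
Normalised CPM plus 0.1 (log scale) of transcription factors in each of the 3 control libraries (circles) and 3 RAS libraries (squares), with a short bar at the mean. The left panel holds genes that rose, such as KLF9 and SOX4, and the right panel genes that fell, such as FOXM1 and GATA2; the groups are apart in every gene shown.

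Factors of mesenchymal lineages moved both ways. Of 42 tested members 16 rose and 14 fell, and the median of 0.12 became -0.03 with libraries scaled by totals alone. SOX4 had 113, 115 and 111 CPM in control and 536, 519.9 and 529 CPM in RAS cells, 4.68-fold higher, whereas SOX9 and SOX11, its relatives, fell 3.19-fold and 3.75-fold. GATA2, best known from blood stem cells, had 25, 22.4 and 29.4 CPM in control and 2.86, 0.749 and 3.92 CPM in RAS cells, 10.02-fold lower. OSR1, a factor of early lung and kidney mesoderm, had 3.75, 6.42 and 11.3 CPM in control and 0.681, 0.187 and 0.178 CPM in RAS cells; its log2 change of -4.20 became -5.14 without RAS replicate 1. TBX3, which can repress the CDKN2A locus, rose 2.28-fold, from 354, 353 and 321 to 839, 790.0 and 711 CPM, while TBX5, a lung mesenchyme and heart factor, fell 1.32-fold, from 99.9, 91.7 and 97.5 to 79.96, 75.5 and 63.3 CPM. FOXF1, the forkhead factor of lung mesenchyme, rose 1.92-fold and TWIST1 1.97-fold. SOX4, GATA2 and TBX3 separated the groups completely.

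Homeobox genes rose more often than they fell, with 11 higher and 4 lower of 27 tested and a median of 0.32. ZEB1, a repressor of epithelial genes, had 324, 293 and 287 CPM in control and 629, 635 and 675 CPM in RAS cells, 2.14-fold higher. TSHZ2, a teashirt zinc finger homeobox gene, had 1.72, 1.81 and 1.996 CPM in control and 15.3, 16.7 and 14.3 CPM in RAS cells, and SIX5 11.9, 11.9 and 13.3 CPM in control and 31.1, 34.1 and 39.6 CPM in RAS cells. HHEX fell 2.93-fold, from 22.7, 20.9 and 19.3 to 8.99, 6.74 and 5.53 CPM. Of 12 clock genes, all tested, 5 rose and 2 fell with a median of 0.18, but without control replicate 2 only 4 of the 12 were called. PER1, a repressor of the clock that also answers cAMP and glucocorticoids, rose 3.99-fold, from 9.38, 4.28 and 8.65 to 26.7, 26.4 and 36.4 CPM, and NPAS2, a partner of BMAL1, 3.96-fold, from 8.28, 8.24 and 11 to 30.6, 43.1 and 35.5 CPM. BHLHE41, which represses clock genes, rose 2.97-fold. The 2 lower genes were PER3 and CLOCK. PER3 fell 2.15-fold, from 9.22, 10.5 and 10.1 to 3.27, 4.68 and 6.06 CPM, and lost its call without RAS replicate 1. CLOCK fell 1.21-fold and lost its call in 6 of the alternatives. Both PER1 and NPAS2 were higher in every RAS library than in any control library.

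Promoter sequences were searched for motifs of these and other factors. Letters were matched on both strands in RefSeq promoters of GRCh38.p14, from 250 bases before to 50 after the start site, for 10049 tested genes, 1125 of them called at least 2-fold higher and 876 at least 2-fold lower. TTTGAA, the cell cycle homology region (CHR) that MuvB complexes read, was in 16.8% of promoters of lower genes, 9.69% of higher genes and 9.73% of all tested genes, though also in 15.4% of all 27305 promoters in the table. TTTCCCGC, an E2F site, was in 4.34%, 2.22% and 2.63%, with 1.66% over all promoters. CCAAT was in 45.8% of lower, 33.2% of higher and 37% of tested genes (35.7% of all promoters). The NF-kB consensus was in 11.4% of lower, 15.9% of higher and 12.8% of tested genes (10.8% of all promoters). GAAANNGAA, the core of the interferon response element, was in 6.51%, 9.6% and 6.3% (8.29% of all promoters).

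The shares of the other motifs were as follows. TGAGTCA, the AP-1 site, was in 3.2% of lower, 4.09% of higher and 3.01% of tested genes (4.92% of all promoters), and TGACGTCA, the cAMP response element, in 3.88%, 2.4% and 3.4% (1.98% of all promoters). CACGTG, the E-box that MYC and clock factors bind, was in 11.3%, 8% and 10.2% (7.43% of all promoters), and the CArG box of serum response factor in 0.685%, 1.51% and 1.12% (1.29% of all promoters). NF-kB and E2F sites can share letters, and AP-1 and cAMP response elements are close relatives. These shares are descriptions; a match is not a bound site.

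The RefSeq promoters of 4 genes described below, each as the 250 bases before the start site on the plus strand of GRCh38.p14, show what such matches look like. They were picked after their values were seen, because they hold matches. TYMS (chr18:657403-657652) and RRM1 (chr11:4094435-4094684) belong to nucleotide synthesis and fell; capitals mark an E2F site read on the opposite strand at -39 to -32 in TYMS, and in RRM1 a CHR on the opposite strand at -199 to -194 and a CCAAT box at -28 to -24. CFB (chr6:31945845-31946094) and BIRC3 (chr11:102317234-102317483) rose; capitals mark an interferon response core on the opposite strand at -139 to -131 and an NF-kB match at -112 to -103 in CFB, and NF-kB matches, both on the opposite strand, at -199 to -190 and -135 to -126 in BIRC3. Positions are counted back from the start site, whose preceding base is -1.
TYMS: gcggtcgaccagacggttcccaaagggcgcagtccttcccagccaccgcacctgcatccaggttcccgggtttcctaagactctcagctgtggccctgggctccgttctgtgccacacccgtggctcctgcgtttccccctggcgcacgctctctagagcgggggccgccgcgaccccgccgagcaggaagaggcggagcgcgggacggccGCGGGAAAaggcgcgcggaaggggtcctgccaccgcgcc
RRM1: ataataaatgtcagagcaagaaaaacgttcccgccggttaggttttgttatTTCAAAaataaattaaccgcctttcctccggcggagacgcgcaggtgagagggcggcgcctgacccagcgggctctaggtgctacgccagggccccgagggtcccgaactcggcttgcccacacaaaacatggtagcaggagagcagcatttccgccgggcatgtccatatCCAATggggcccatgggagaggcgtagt
CFB: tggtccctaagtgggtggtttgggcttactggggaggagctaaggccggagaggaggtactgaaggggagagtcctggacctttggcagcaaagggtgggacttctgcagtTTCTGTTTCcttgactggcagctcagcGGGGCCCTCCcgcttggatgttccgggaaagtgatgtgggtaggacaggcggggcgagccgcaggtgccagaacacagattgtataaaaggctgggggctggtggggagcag
BIRC3: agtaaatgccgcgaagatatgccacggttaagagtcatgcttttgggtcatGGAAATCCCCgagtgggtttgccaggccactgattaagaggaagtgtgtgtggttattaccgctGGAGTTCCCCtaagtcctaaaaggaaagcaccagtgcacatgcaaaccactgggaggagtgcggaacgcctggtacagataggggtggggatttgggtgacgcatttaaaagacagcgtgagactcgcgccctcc

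Receptor genes changed in both directions, at times within 1 family. Of 48 tested G protein-coupled receptors (82 in the list, of which 81 were matched), 20 rose and 9 fell with a median of 0.80. BDKRB2, the constitutive bradykinin receptor, had 41.9, 38.9 and 36.3 CPM in control and 696, 656 and 637 CPM in RAS cells, a log2 change of 4.09 ± 0.08 (SE, adjusted p = 2.01e-29). Its inducible relative BDKRB1 had 255, 232 and 238 CPM in control and 260.0, 238 and 216 CPM in RAS cells and was not called (adjusted p = 0.847). EDNRB, an endothelin receptor, had 1.88, 0.988 and 1.83 CPM in control and 66.7, 49.8 and 39.6 CPM in RAS cells, 32.8-fold higher, and ACKR3, a scavenging receptor for CXCL12, had 3 control counts and 4.63, 5.81 and 5.7 CPM under RAS, which is a ratio of 32.7 (95% exact counting interval 10.9 to 161); all 3 control counts were in control replicate 1 and the other control libraries had 0, so the ratio rests on that library. BDKRB2 and EDNRB were far above control in every RAS library, and in BDKRB1 the groups overlapped.

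Some of these receptors fell to low levels. OXTR, the oxytocin receptor, had 52.2, 54.8 and 48.7 CPM in control and 4.77, 5.06 and 3.74 CPM in RAS cells, 11.4-fold lower (adjusted p = 1.07e-15). GPRC5A, an orphan receptor induced by retinoic acid, had 135, 114 and 109.6 CPM in control and 10.5, 22.5 and 17.1 CPM in RAS cells, 7.28-fold lower. PTGER2, a prostaglandin E2 receptor coupled to cAMP, fell 2.45-fold, from 20.9, 13.2 and 17.1 to 7.9, 6.37 and 6.6 CPM, whereas PTGER4, which shares that ligand and coupling, rose 2.67-fold, from 11.9, 15.8 and 12.1 to 38.3, 35.8 and 32.4 CPM. S1PR3, a receptor for sphingosine 1-phosphate, rose 4.64-fold, from 23, 23.2 and 25.3 to 105, 121 and 106 CPM. LPAR1, the lysophosphatidic acid receptor of fibroblasts, had 174, 172 and 185 CPM in control and 177, 173 and 193 CPM in RAS cells and did not pass the test (adjusted p = 0.767).

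Of 27 tested receptor tyrosine kinases 11 rose and 6 fell, with a median of 0.30. PDGFRA, a receptor for platelet-derived growth factor on mesenchymal cells, had 58.6, 67 and 56.2 CPM in control and 439, 458 and 412 CPM in RAS cells, 7.19-fold higher, while PDGFRB rose 1.68-fold. MET, the receptor of hepatocyte growth factor, had 90.8, 88.1 and 79.2 CPM in control and 29.8, 36.2 and 25.5 CPM in RAS cells, 2.82-fold lower. EGFR rose 1.57-fold, from 256, 237 and 231 to 396, 397 and 345 CPM, and its partner ERBB2 fell 1.86-fold, from 40.9, 39.2 and 33.1 to 21.7, 24 and 15.3 CPM. PTK7, a pseudokinase of Wnt signalling, rose 2.87-fold, from 87.5, 93.6 and 66.5 to 289, 249 and 173 CPM. Both PDGF receptors thus rose, and EGFR and ERBB2 moved in opposite directions.

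Of 25 tested cytokine receptors 9 rose and 0 fell by edgeR, against 24% and 21.9% of all genes, with a median of 0.62. The share called was 36%, against 45.9% of all tested genes. Lower members numbered 2 at an unadjusted p under 0.05, 1 by DESeq2, 2 by limma-voom and 1 with libraries scaled by totals alone. OSMR, the receptor of oncostatin M, had 32.8, 45.6 and 40.6 CPM in control and 122, 156 and 126 CPM in RAS cells, 3.39-fold higher, and its signalling partner IL6ST rose 1.32-fold. IL4R, the shared receptor of IL-4 and IL-13, had 65.2, 52.2 and 49.2 CPM in control and 155, 127 and 141 CPM in RAS cells, and the decoy receptor IL13RA2 0.469, 1.65 and 0.998 CPM in control and 8.99, 11.1 and 7.31 CPM in RAS cells. IL7R rose 1.94-fold. LIFR, which also pairs with IL6ST, had 21.7, 16.1 and 14.8 CPM in control and 27.5, 15.7 and 15.3 CPM in RAS cells and was not called (adjusted p = 0.529).

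Receptors of the TGF-beta, BMP, Notch and Hedgehog pathways had 8 higher and 3 lower of 23 tested, with a median of 0.40; the share called was 47.8%, against 45.9% of all tested genes. TGFBR1, the signalling kinase of the TGF-beta receptor, had 21.6, 25.2 and 28.3 CPM in control and 119, 152 and 128 CPM in RAS cells, 5.31-fold higher, and TGFBR2, which activates it, rose 1.87-fold. HHIP, which binds and blocks Hedgehog ligands, had 18.1, 7.58 and 15.8 CPM in control and 1.09, 0.749 and 2.85 CPM in RAS cells; its log2 change of -3.14 became -3.86 without RAS replicate 3. NOTCH3 rose 2.35-fold and the Notch ligand JAG1 fell 2.16-fold. Both TGF-beta receptor genes were higher in all RAS libraries.

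Lipoprotein, scavenger and pattern recognition receptors had 15 higher and 5 lower of 24 tested, with a median of 0.65. VLDLR, the very low density lipoprotein receptor, had 4.84, 4.78 and 1.83 CPM in control and 38.8, 38 and 32.8 CPM in RAS cells, 9.5-fold higher. CD36, a scavenger receptor and fatty acid carrier, had 3 control counts and 4.22, 4.68 and 5.17 CPM under RAS, which is a ratio of 28.6 (95% exact counting interval 9.47 to 142). SCARA3 fell 3.71-fold, from 233, 196 and 188 to 56.4, 59 and 50.8 CPM, and MRC2, an endocytic collagen receptor, rose 3.05-fold, from 139, 143 and 141 to 426, 416 and 447 CPM. TLR2 had 0 control and 8 RAS counts and was not tested. VLDLR, CD36 and MRC2 were higher in every RAS library and SCARA3 lower.

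**Figure D4:**
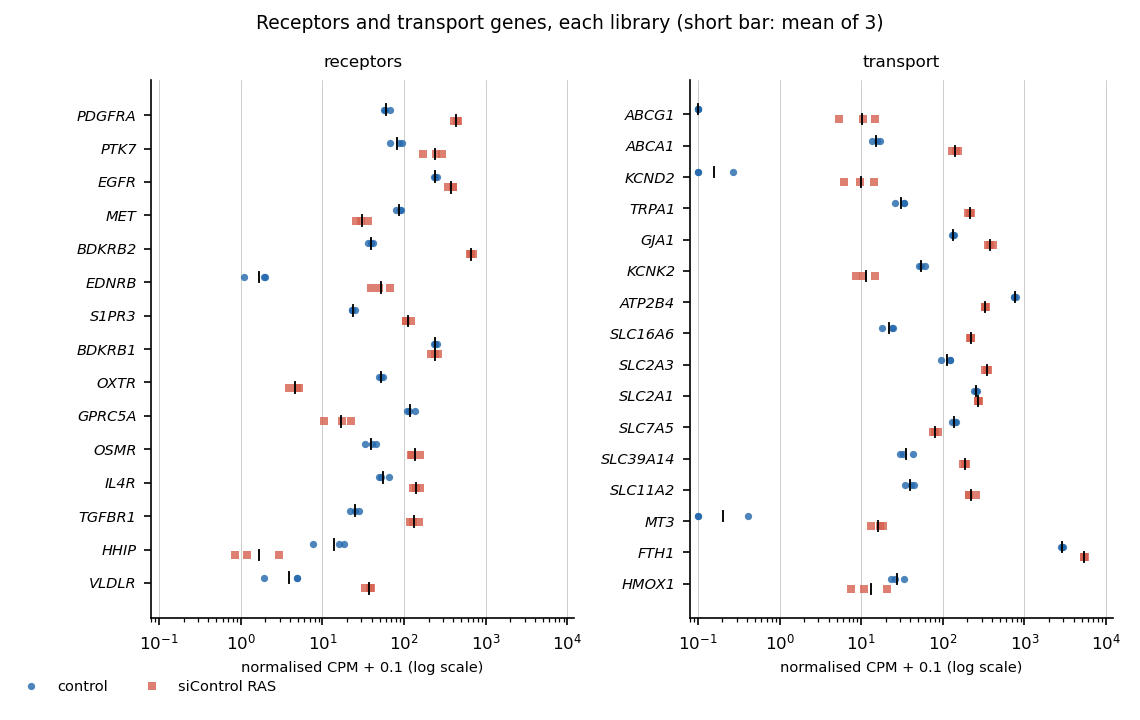
Normalised CPM plus 0.1 (log scale) of receptors (left) and transport genes (right) in each of the 3 control libraries (circles) and 3 RAS libraries (squares), with a short bar at the mean. BDKRB2 and SLC16A6 lie far higher in RAS libraries and OXTR and KCNK2 lower, while BDKRB1 overlaps and SLC2A1 nearly does.

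Carriers for sugars, monocarboxylates and amino acids rose more often than they fell, with 18 higher and 7 lower of 38 tested and a median of 0.37. SLC16A6, a carrier of ketone bodies and other monocarboxylates, had 17.7, 23.9 and 24.1 CPM in control and 222, 221 and 216 CPM in RAS cells, a log2 change of 3.33 ± 0.12 (SE, adjusted p = 1.69e-22). SLC2A3, the glucose carrier GLUT3, had 124, 95 and 121 CPM in control and 361, 351 and 330.5 CPM in RAS cells, 3.07-fold higher, while SLC2A1, GLUT1, had 241, 265 and 253 CPM in control and 266, 275 and 267 CPM in RAS cells and was not called (adjusted p = 0.356). The lactate exporter SLC16A3 rose 1.72-fold, from 438, 393 and 389 to 756, 645 and 703 CPM. The amino acid carrier SLC6A15 and the taurine carrier SLC6A6 rose 5.24-fold and 3.38-fold. SLC7A5, the large neutral amino acid carrier, fell 1.72-fold, from 131, 141 and 145 to 76.8, 86.4 and 79.9 CPM. In SLC16A6 and SLC2A3 every RAS library was above every control library.

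Importers of zinc and iron were among the metal genes that rose, and so was the iron exporter SLC40A1. Of 39 tested genes for zinc, iron and copper, metallothioneins included, 16 rose and 6 fell, with a median of 0.39. SLC39A14 (ZIP14), an importer of zinc, iron and manganese that inflammation induces, had 32, 43.3 and 29.4 CPM in control and 179, 191 and 187 CPM in RAS cells, 5.3-fold higher. SLC11A2 (DMT1), a ferrous iron importer, had 40.3, 34.6 and 44.2 CPM in control and 211, 252 and 209 CPM in RAS cells, 5.64-fold higher, and the transferrin receptor TFRC rose 2.01-fold, from 86.4, 100.5 and 107 to 186, 211 and 195 CPM. The ferritin heavy chain FTH1, which stores iron, rose 1.88-fold, from 2956, 2851 and 2799 to 5407, 5453 and 5320.4 CPM; it has many processed pseudogenes, so its share of reads is uncertain. SLC40A1 rose 3.9-fold, from 0.625, 4.45 and 2.16 to 10.1, 11.1 and 7.13 CPM. Its log2 change of 1.96 became 2.75 without control replicate 2. HMOX1, which frees iron from heme, went down 2.05-fold, from 23, 25.5 and 33.1 to 20.8, 7.49 and 10.9 CPM. MT3, a metallothionein first known from brain, had 2 control counts, both in control replicate 1, and 17, 13.1 and 18.4 CPM under RAS, which is a ratio of 151 (95% exact counting interval 41.3 to 1249), while MT2A had 9144, 8946 and 9081 CPM in control and 11157, 10859.7 and 11993 CPM in RAS cells. Metallothionein genes are close relatives and can share reads.

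Among ABC transporters 10 of 27 tested rose and 2 fell, with a median of 0.44; the share called was 44.4%, against 45.9% of all tested genes. ABCA1, which loads cholesterol onto apolipoprotein A-I, had 16.7, 15.5 and 13.6 CPM in control and 146, 153 and 129 CPM in RAS cells, 9.32-fold higher, and ABCG1, which passes cholesterol on to HDL, was silent in control, as given above. The drug pump ABCB1 had 6.88, 3.62 and 8.15 CPM in control and 4.77, 4.5 and 0.535 CPM in RAS cells and was not called (adjusted p = 0.27). The cholesterol exporters ABCA1 and ABCG1 were thus both higher in every RAS library.

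Of 249 genes for ion channels, pumps, aquaporins and gap junctions, 86 were tested, 25 rose and 14 fell, with a median of 0.32. The share called was 45.3%, close to the 45.9% of all tested genes, and with libraries scaled by totals alone 20 rose and 19 fell. TRPA1, a cation channel opened by reactive electrophiles, had 33.3, 26.2 and 33.1 CPM in control and 220.0, 216 and 204 CPM in RAS cells, 6.91-fold higher. KCND2, a fast inactivating potassium channel, had 1 control count and 9.67, 5.99 and 14.1 CPM under RAS, which is a ratio of 184 (95% exact counting interval 32.6 to 7304). The background potassium channel KCNK2 fell 4.82-fold, from 50.5, 59.95 and 53.6 to 14.8, 10.3 and 8.56 CPM, and the calcium pump of the plasma membrane ATP2B4 2.29-fold, from 794, 747 and 746 to 331, 338 and 328 CPM. GJA1, connexin 43 of gap junctions, rose 2.85-fold, from 134, 138 and 129 to 358, 381 and 407 CPM. The mechanosensitive channel PIEZO2 rose 2.85-fold, from 22.7, 19.9 and 28.4 to 74, 68.4 and 59.5 CPM, while PIEZO1 fell 1.44-fold. The groups did not overlap in any of these channels, and AQP1 (3 control and 22 RAS counts) and KCNN4 (24 and 9) were too low to test.

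Nucleotide synthesis was the metabolic list that moved furthest in one direction. All 30 members were tested, 19 fell and 0 rose by edgeR, against 21.9% and 24% of all genes, and the median log2 change was -0.74. Higher members numbered 1 at an unadjusted p under 0.05, 1 by DESeq2 and 1 by limma-voom. RRM2, the S-phase subunit of ribonucleotide reductase, had 127, 131 and 105 CPM in control and 6.95, 4.12 and 9.98 CPM in RAS cells, 17.1-fold lower, and RRM1, its catalytic partner, had 279, 260.1 and 248 CPM in control and 89.2, 76.1 and 57.2 CPM in RAS cells, 3.53-fold lower. TK1, the thymidine kinase of dividing cells, fell 10.4-fold, from 52.4, 51.9 and 69.7 to 5.18, 6.18 and 5.35 CPM, and TYMS, which makes thymidylate, 4.99-fold, from 75.6, 76.9 and 75.4 to 13.2, 19.5 and 13.2 CPM. Upstream of DNA synthesis, PRPS1, which makes phosphoribosyl pyrophosphate, had 74.2, 70.7 and 72.7 CPM in control and 14.6, 7.87 and 18 CPM in RAS cells, and CAD, which starts pyrimidine synthesis, 54.7, 42.2 and 53.7 CPM in control and 14.8, 17.8 and 12.1 CPM in RAS cells. In all of these genes the highest RAS library was below the lowest control library.

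Salvage and breakdown of nucleotides did not share that direction, with 6 higher and 7 lower of 23 tested. The shares of 26.1% and 30.4% compare with 24% and 21.9% of all tested genes. The median of -0.10 became 0.02 without control replicate 1. SAMHD1, which cleaves deoxynucleotides, had 29.4, 31.5 and 23.8 CPM in control and 91.4, 97.4 and 98 CPM in RAS cells, 3.38-fold higher, and AMPD3, an AMP deaminase, rose 4.83-fold, from 12.5, 15.3 and 18.3 to 69.6, 72.3 and 80.7 CPM. TYMP, thymidine phosphorylase, rose 6.21-fold, from 0.625, 2.47 and 1.66 to 5.31, 11.6 and 13 CPM, and NUDT1, which clears oxidised nucleotides, fell 3.29-fold, from 16.7, 21.1 and 23.3 to 5.31, 5.99 and 7.31 CPM. NT5E (CD73), which makes adenosine outside the cell, had 473, 493 and 503 CPM in control and 531, 507 and 516 CPM in RAS cells and was not called (adjusted p = 0.353). SAMHD1 and TYMP, which break down deoxynucleotides and thymidine, were thus among the 6 higher members, and NUDT1 was among the 7 lower.

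**Figure D5:**
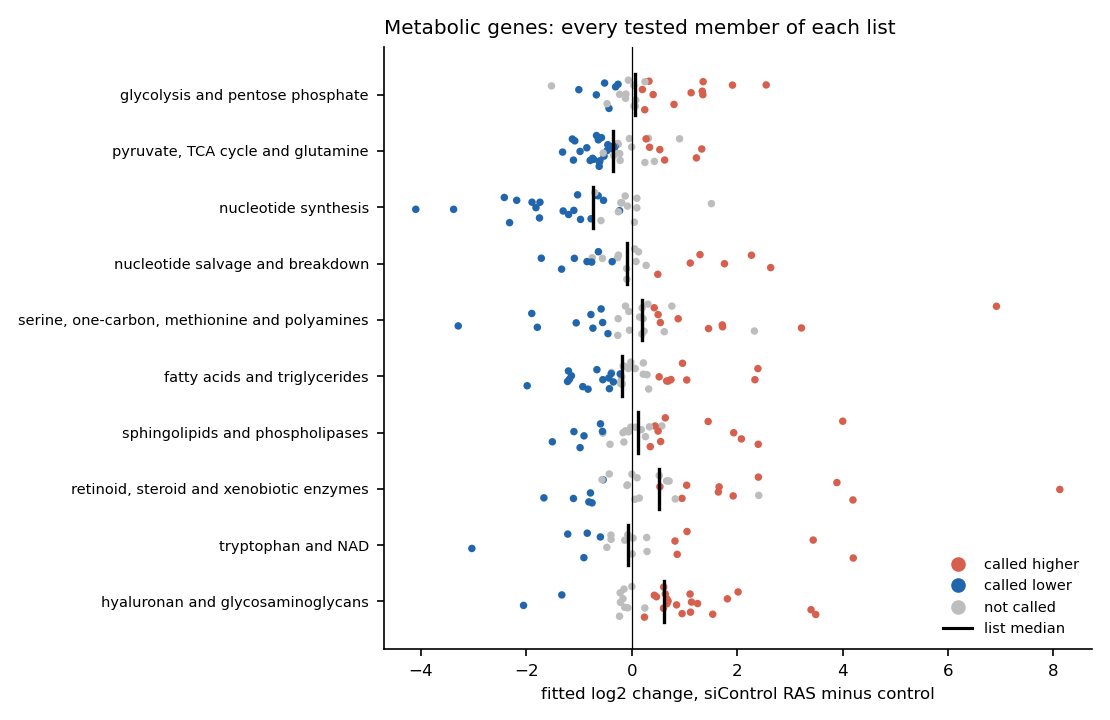
Fitted log2 change (x axis, RAS minus control) of every tested member of the 10 metabolic lists, coloured by the call, with a bar at each list's median. Members of nucleotide synthesis lie mostly to the left (median -0.74) and those of hyaluronan and glycosaminoglycans to the right (median 0.61).

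In glycolysis the regulators PFKFB3 and PFKFB4 and the isoforms HK2 and ALDOC rose, while GAPDH fell. Of 28 tested genes of glycolysis and the pentose phosphate pathway 11 rose and 6 fell, and the median of 0.06 became -0.09 with libraries scaled by totals alone and also turned without RAS replicate 1. PFKFB4 and PFKFB3, which make the activator of phosphofructokinase, had 9.53, 5.76 and 11.5 CPM in control and 53.5, 49.5 and 54.2 CPM in RAS cells, and 111, 110.2 and 112 CPM in control and 292, 271 and 287 CPM in RAS cells, respectively. HK2, the inducible hexokinase, rose 2.18-fold, from 42.8, 46.4 and 50.1 to 105, 101 and 97.7 CPM, and ALDOC, an aldolase of brain, 3.76-fold. GAPDH fell 1.24-fold, from 4179, 4044 and 4421 to 3311, 3392 and 3519 CPM, and LDHA had 1621, 1769.8 and 1731 CPM in control and 1686, 1801 and 1777 CPM in RAS cells and was not called (adjusted p = 0.579). In the pentose phosphate branch TKT (transketolase) fell 2.01-fold, from 171, 166 and 176 to 93.3, 80.4 and 81.3 CPM, and TALDO1 1.59-fold. PFKFB3 and PFKFB4 were higher in every RAS library.

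Genes that carry carbon into and around the TCA cycle went down in small steps. Of 41 tested 21 fell and 6 rose, with a median of -0.35, and only 4 of the falls and 2 of the rises reached 2-fold. CS, citrate synthase, had 82.2, 79.1 and 87 CPM in control and 30.5, 45 and 24.8 CPM in RAS cells, 2.48-fold lower, and FH, fumarase, 43.6, 37.9 and 49.9 CPM in control and 18.3, 20.2 and 21.7 CPM in RAS cells, 2.18-fold lower. MPC1, of the mitochondrial pyruvate carrier, fell 2.12-fold and GLUL, glutamine synthetase, 2.15-fold, from 39.2, 28.3 and 41.6 to 14.6, 20.6 and 15.7 CPM. PDK3, a kinase that shuts pyruvate dehydrogenase, rose 2.34-fold, from 3.44, 5.27 and 7.98 to 10.8, 15.9 and 12.5 CPM, while PDK4 was hardly counted (0 control and 13 RAS counts). CS and FH were lower in all RAS libraries than in any control library.

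Of the polyamine genes described here, chosen after their values were seen, SAT1 and SMOX rose and ODC1 and SRM fell. SAT1, which acetylates spermidine and spermine for export, had 60.6, 63.4 and 58.2 CPM in control and 554, 581 and 565 CPM in RAS cells, a log2 change of 3.22 ± 0.08 (SE, adjusted p = 2.24e-27). SMOX, spermine oxidase, rose 3.29-fold, from 18.8, 22.1 and 14.8 to 63.7, 65.6 and 53.8 CPM. ODC1, which makes putrescine, had 44.2, 47.8 and 59.2 CPM in control and 13.3, 13.3 and 13.9 CPM in RAS cells, 3.72-fold lower, and SRM, which makes spermidine, fell 2.08-fold, from 323, 333 and 297.9 to 140.4, 147 and 173 CPM. These 4 genes separated the groups completely, whereas OAZ1, the antizyme that steers ODC1 to breakdown, was not called (adjusted p = 0.176). In their list, which also holds serine, one-carbon and methionine enzymes, 9 of 32 tested members rose and 9 fell, with a median of 0.19. Each direction held 28.1% of the tested members, against 24% higher and 21.9% lower of all tested genes. The cytosolic folate enzymes MTHFD1 and SHMT1 fell 3.46-fold and 9.8-fold (-3.29 on the log2 scale, and -4.05 without RAS replicate 1), whereas their mitochondrial relatives SHMT2 and MTHFD2 had adjusted p = 0.0909 and 0.24. ASS1, argininosuccinate synthase, had 0 control counts and 1.63, 3.75 and 2.32 CPM in RAS cells, at least 15.2-fold higher.

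NAD and tryptophan genes held one of the steepest metabolic rises. NAMPT, the rate-limiting enzyme of NAD salvage and also a secreted cytokine, had 53.8, 42.2 and 48.1 CPM in control and 910.1, 867 and 878 CPM in RAS cells, a log2 change of 4.20 ± 0.09 (SE, adjusted p = 3.46e-29). KYNU, kynureninase, had 0.781, 0.824 and 4.66 CPM in control and 21.4, 24.4 and 22.5 CPM in RAS cells; its log2 change of 3.44 became 4.79 without control replicate 3. NMNAT2, a cytosolic NAD synthase, fell 8.19-fold, from 9.22, 9.22 and 5.66 to 1.36, 1.12 and 0.356 CPM. NAMPT was more than 10 times higher in every RAS library than in any control library. The list as a whole had 5 higher and 5 lower of 19 tested and a median of -0.07 that was positive without control replicate 2 or RAS replicate 1. Each direction held 26.3% of the tested members, against 24% higher and 21.9% lower of all tested genes. Without control replicate 1 only 6 members were called. IDO1, which starts tryptophan breakdown, had 0 control counts and 1 RAS count.

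Fatty acid and triglyceride genes fell more often than they rose, with 14 lower and 8 higher of 37 tested and a median of -0.18. FASN, fatty acid synthase, had 147, 145 and 112 CPM in control and 59.7, 57 and 66 CPM in RAS cells, 2.21-fold lower, and FABP5, a fatty acid chaperone, 96.1, 84.3 and 93 CPM in control and 25.2, 27.5 and 16.2 CPM in RAS cells, 3.96-fold lower. ACSL4, which activates arachidonic acid and other long polyunsaturated fatty acids, had 88.6, 105 and 102 CPM in control and 487, 517 and 489 CPM in RAS cells, 5.05-fold higher. SCD, the stearoyl-CoA desaturase, had 75.8, 61.4 and 56.7 CPM in control and 64.2, 78.9 and 83.4 CPM in RAS cells and was not called (adjusted p = 0.165), though it was called higher without control replicate 1 (log2 change 0.35). ACACB, the mitochondrial acetyl-CoA carboxylase, rose 5.25-fold, from 1.25, 1.32 and 2.83 to 10.2, 6.18 and 12.1 CPM. In FASN, FABP5 and ACSL4 the groups did not overlap.

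Phospholipid enzymes had 10 higher and 6 lower of 28 tested, and the median of 0.13 became -0.02 with libraries scaled by totals alone. PLA2G4A, the phospholipase that frees arachidonic acid, had 3 control counts and 3.41, 3.93 and 1.43 CPM under RAS, which is a ratio of 18.2 (95% exact counting interval 5.9 to 91). PLD1 rose 5.28-fold, from 10.8, 7.58 and 7.82 to 42.2, 49.3 and 47.4 CPM, and PLPP1 3.82-fold. SPHK1, which makes sphingosine 1-phosphate, fell 2.14-fold, from 21.1, 19.4 and 18.6 to 9.13, 5.62 and 12.8 CPM. ACSL4 and PLA2G4A, both of which handle arachidonic acid, were thus both higher.

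Retinoid, steroid and xenobiotic enzymes had 10 higher and 6 lower of 29 tested, with a median of 0.52. CYP26B1, which breaks down retinoic acid, had 1 control count and 23.6, 15.9 and 23.4 CPM under RAS, which is a ratio of 393 (95% exact counting interval 70.1 to 15566). ALDH1A3, which makes retinoic acid, had 11.1, 14 and 15.6 CPM in control and 57.9, 42.2 and 54.4 CPM in RAS cells, 3.8-fold higher. With RARB above, which had only 44 counts over the RAS libraries, a receptor, a synthase and a breakdown enzyme of retinoic acid were all higher. CRABP2, which carries retinoic acid to the nucleus, was not called (adjusted p = 0.0627). GPRC5A, described above as induced by retinoic acid, went the other way and fell 7.28-fold. AKR1C1, which reduces steroids and aldehydes, had 8.13, 5.44 and 9.32 CPM in control and 128, 117 and 95 CPM in RAS cells, 14.9-fold higher; its relative AKR1C2 is nearly identical, so the split between them is uncertain. CYP1B1, a target of the aryl hydrocarbon receptor, rose 5.29-fold, and GSTP1, the main glutathione transferase of many cultured cells, had 798, 739 and 822 CPM in control and 663, 748 and 819 CPM in RAS cells and was not called (adjusted p = 0.517).

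Genes for hyaluronan and sulfated sugar chains rose in most cases, with 20 higher and 2 lower of 31 tested and a median of 0.61. CEMIP, which degrades hyaluronan, rose 4.05-fold, from 7.97, 5.44 and 5.66 to 29.2, 24.7 and 23.5 CPM, and HAS2, which makes it, 1.52-fold, from 43.4, 42.7 and 48.6 to 69.6, 59.2 and 75.4 CPM. SULF1, which trims sulfate from heparan sulfate outside the cell, rose 3.52-fold and GLCE, an epimerase of its chain, 2.9-fold. XYLT1, which starts the chains on core proteins, was one of the exceptions and fell 4.15-fold, from 42.2, 41 and 53.2 to 12.1, 8.24 and 12.3 CPM; CHST3 was the other, 2.51-fold lower. NDST1 was not called (adjusted p = 0.157) but was called lower with libraries scaled by totals alone (adjusted p = 0.00314).

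Complement and coagulation genes had 16 higher and 2 lower of 22 tested, and a median of 1.70. C3, the central complement protein, had 3 control counts and 90.9, 72.1 and 72 CPM under RAS, which is a ratio of 490.4 (95% exact counting interval 167 to 2381). CFB, of the alternative pathway, had 1 control count and 23.2, 29 and 17.8 CPM under RAS, which is a ratio of 429 (95% exact counting interval 76.7 to 17003); its promoter is printed above. C1R and C1S, the proteases of the classical pathway, had 10.002, 12.4 and 10.8 CPM in control and 189, 176 and 201 CPM in RAS cells, and 9.06, 8.4 and 11.5 CPM in control and 166, 146 and 132 CPM in RAS cells, respectively. Their inhibitor SERPING1 rose 7.2-fold. F3, tissue factor, which starts coagulation, had 269.6, 237 and 236 CPM in control and 993, 1009 and 964 CPM in RAS cells, 3.99-fold higher, and TFPI2, a protease inhibitor related to the inhibitor of that pathway, rose 1.3-fold. CD59, which blocks the membrane attack complex, fell 1.43-fold, from 570.1, 566 and 573 to 402, 403 and 391 CPM. Of the genes named here CD59 alone was lower in the RAS libraries. The other of the 2 lower members, not named here, fell by at least 2-fold.

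Genes of cell survival went apart within the BCL2 and IAP families, with 10 higher and 5 lower of 23 tested and a median of 0.34. BCL2A1, an NF-kB target that protects from death, had 3 control counts and 14.4, 5.99 and 9.09 CPM under RAS, which is a ratio of 63.7 (95% exact counting interval 21.5 to 311). BIRC3, an inhibitor of apoptosis whose promoter is printed above, had 6.56, 4.45 and 6.65 CPM in control and 34.2, 31.3 and 35.8 CPM in RAS cells, 5.72-fold higher, and MCL1 rose 2.19-fold, from 305, 289 and 343 to 651, 699 and 706 CPM. BCL2L1, which encodes BCL-XL, had 45.8, 50.4 and 52.7 CPM in control and 26.3, 27 and 28.3 CPM in RAS cells, 1.83-fold lower, and BCL2, counted 31 times in control and 18 times in RAS cells, was not called (adjusted p = 0.587). The death-promoting BH3-only genes BCL2L11 and BBC3 rose 6.86-fold and 2.4-fold, and BIRC5, which also serves chromosomes in mitosis, fell 18.2-fold. BCL2A1, BIRC3 and MCL1 were higher in every RAS library and BCL2L1 and BIRC5 lower.

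Of 34 tested cadherins and protocadherins (102 in the list) 10 rose and 2 fell, with a median of 0.41; the share called was 35.3%, against 45.9% of all tested genes. CDH2, N-cadherin, had 118, 101 and 105 CPM in control and 40.2, 45.5 and 30.7 CPM in RAS cells, 2.78-fold lower, whereas CDH11, the cadherin of mesenchyme, rose 1.81-fold, from 75.3, 77.6 and 76.7 to 156, 128 and 131 CPM. DCHS1 and PCDH18 rose 3.66-fold and 2.89-fold. Protocadherins of the gamma cluster share their last exons, so 3′ tags do not tell them apart and none is described singly.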

How the data were processed

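Gene counts were deposited by the authors as 1 table of whole numbers for 15 libraries of 5 groups, 3 each; every column matched a sample. Per the submitters' processing notes, Bowtie2, RSEM 1.2.12 and hg19 were used; the sources used here give neither the annotation nor the use of strand. Of 57736 gene identifiers 52301 (90.59%) were named through the symbol tables or GENCODE 29.

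Genes with low counts were dropped (filterByExpr), and 13516 genes were fitted in edgeR 4.0.16 (R 4.3.3) with TMM scaling and the robust quasi-likelihood test over all 15 libraries (10 residual degrees of freedom). Two-sided p-values were adjusted over all 13516 genes (Benjamini-Hochberg) and called under 0.05. CPM used TMM-scaled totals. Log2 changes are RAS minus control with their SE; a fold is 2 to that power. A gene with 0 counts in a group was bounded by setting that group's sum to 3 counts, while 1 to 3 counts gave a ratio with a 95% exact interval that covers counting error only. On simulated counts for 12522 genes the test recovered 14% of 1.5-fold, 74% of 2-fold and 98% of 4-fold changes. Only 50 genes were changed at each fold, and all genes were given the same spread. With so few changed genes the adjustment is stricter than here, where 6201 genes were called. These rates are therefore not the power of this comparison.

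The 38 lists, their members and the rule for named genes were chosen with earlier results of these data known. That rule took the 12 steepest called changes each way above 10 CPM without overlap, the 10 largest changes in CPM each way, up to 4 steepest called members above 5 CPM and the most abundant member of each list, and 97 genes of a prior list. Any other gene given with a value was chosen after its values were seen, as were the subgroups of genes set side by side within a list. Of 1907 list entries 1902 were matched. The labels do not say that replicate numbers pair the libraries, so no block was used in the main fit. Deviations from the group means correlated weakly, at 0.0377, 0.00896 and 0.0433, between same-numbered libraries. Whether these libraries share a batch was not tested. Replicates of a group correlated at 0.971 to 0.978 (Pearson, log2 CPM over genes, which are not independent) and differed beyond sampling noise (chi-square per degree of freedom 4.37 to 6.75). Other scalings, no filter, DESeq2 1.42.0, limma-voom (limma 3.58.1), the 6 libraries alone, a replicate block and leaving out each library were tried as alternatives. Promoters came from RefSeq on GRCh38.p14, used only for sequence; no genome of the hg19 build was used. Some genes and 1 list are not reported here.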

Additional observations from a re-analysis of the deposited data

How the results depend on the processing

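The number of genes called, 6201, stayed between 5617 and 6519 over all alternatives run. It was 5617 to 5771 when 1 library was left out, 6317 with DESeq2, 6388 with limma-voom and 6192 without the filter on low counts. With the replicate block 6245 genes were called, 6116 of them also called without it, and among the named genes the block ended only the call of SNORD3B-1. The labels do not say that the numbers pair the libraries. Every library correlated best with its own number except RAS replicate 2. Scaling by totals alone shifted the median log2 change of all genes to -0.15 and the split of calls to 40.6% higher and 59.4% lower. Called ETS factors numbered 4 as reported, 8 with totals alone and 7 with the 6 libraries only. Called tryptophan and NAD genes numbered 10 as reported and 6 (without control replicate 1) to 9 when 1 library was left out, and of 7 called clock genes 4 were left without control replicate 2. Of 230 called named genes 216 kept their call in every alternative, 14 lost it in at least 1, and none reversed. In the simulation, which changed few genes, 2-fold changes were recovered in 74% and 1.5-fold changes in 14% of cases. These rates do not carry over to the real data, where many more genes were called and the adjustment was less strict. At 5611724 to 7763084 counts a library, a gene that was not called can still differ by such a fold.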
